A study of Mus musculus with 16 samples.

Results

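Mitochondrial ribosomal proteins were measured as 73 genes among the 16475 genes tested, chosen as every row whose annotated symbol starts with Mrpl or Mrps and a number. Of these, 48 encode proteins of the large subunit, 23 encode proteins of the small subunit, and 2 are annotated as pseudogenes (Mrpl23-ps1 and Mrpl27-ps). Probes of a pseudogene can also bind transcripts of its near-identical parent, so the values of these 2 rows are uncertain. CD4+ T cells came from the lymph nodes and spleens of C57BL/6 Foxp3-GFP reporter knock-in mice, female and 6 to 12 weeks old, and were sorted by CD4 and GFP into TFoxp3+ cells (regulatory T cells carrying the transcription factor Foxp3) and TFoxp3- cells. Both subsets were studied directly ex vivo, in media with cycloheximide (which holds ribosomes on the mRNA), or after 36 h of activation on plates coated with antibodies to CD3 and CD28, with IL-2 in the medium and cycloheximide added when the culture ended. From each, cytosolic mRNA and polysome-associated mRNA (mRNA carrying at least 3 ribosomes) were hybridised to Affymetrix arrays, which gives 8 groups of 2 arrays and 16 arrays in all. RNA of 2 experiments was pooled for each ex vivo sample, and per the methods the arrays are biological duplicates. Values below are log2 intensities, and "n = 2" holds for every group.

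The mitochondrial ribosome translates the few mRNAs encoded by mitochondrial DNA, all of them for subunits of the respiratory chain and the ATP synthase. Its RNA comes from mitochondrial DNA, but all of its proteins are encoded in the nucleus, translated in the cytosol and imported, so their own mRNAs can be found on cytosolic polysomes. A T cell that leaves the resting state can grow and divide, and builds more mitochondria while doing so. The paper describes TFoxp3- cells activated in vitro as proliferating. It describes TFoxp3+ cells activated in vitro as anergic, meaning that stimulation of the T cell receptor does not make them proliferate. In the paper a higher dose of IL-2 made TFoxp3+ cells proliferate. The part of this difference between subsets in the results was not tested. Names follow the subunit with exceptions: the products of Mrps30 and Mrps18a sit in the large subunit and are counted there.

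Facts of the arrays bear on all of the following results. All ex vivo arrays carry 1 array series name in the labels, and activated TFoxp3- and activated TFoxp3+ arrays each carry another, so activation, and the subset difference in activated cells, cannot be told apart from array series. For actin, whose control probes sit at both ends of the transcript, the 3′ value less the 5′ value lay between 4.16 and 4.64 on ex vivo TFoxp3+ arrays, between 0.82 and 1.38 on ex vivo TFoxp3- arrays, and between -0.59 and -0.20 on all activated arrays. For Gapdh the same gap lay between 3.51 and 4.12, between 2.26 and 3.37, and between 1.04 and 1.32 on these arrays, so the subsets lay closer together ex vivo. Both gaps move with state in both subsets and with subset ex vivo, and their part in the results was not tested. The interquartile range over all genes was 2.62 to 2.90 on activated TFoxp3+ arrays and 3.03 to 3.43 on activated TFoxp3- arrays. Foxp3 was 10.09 to 10.53 in the 4 TFoxp3+ group means and 3.75 to 6.05 in those of TFoxp3- cells. The 3 measured T cell markers (Cd4, Cd3e, Cd3g) lay above the array median in every group. Of markers of other cells, the summed level of 4 B cell genes was 8.43 to 9.21 on ex vivo arrays and 5.69 to 7.70 on activated arrays, with Cd79b the highest ex vivo and Ms4a1 and Pax5 below the array median in all 8 groups. The summed level of 6 myeloid genes was 8.30 to 8.68 on activated TFoxp3+ arrays against 6.74 to 7.87 on activated TFoxp3- arrays, with Itgam and Cd14 below the array median in all 8 groups. The part of these markers in the results was not tested. In bulk RNA, fewer cells of a type and less RNA per cell cannot be told apart.

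Of the 73 genes, 64 to 72 lay above the median of all genes on any array, and the median member was 7.72 to 9.15. The arrays of a pair differed more in activated cells: 24 members differed by more than 1 between the 2 cytosolic arrays of activated TFoxp3+ cells (32.9%, against 20.6% of all genes) and 0 between those of either subset ex vivo. The median gap of a member was 0.63 in that activated group and 0.13 and 0.14 in cytosolic mRNA of ex vivo TFoxp3- and TFoxp3+ cells. By mean over all arrays, Mrpl28 (11.04), Mrps6 (10.62) and Mrpl52 (10.60) gave the highest intensities, and Mrpl1 (4.03), Mrpl51 (4.83) and Mrpl41 (5.13) the lowest. Intensities of different probe sets do not rank transcripts by abundance. Mrpl1 and Mrpl51 lay near or below the array median, which was 4.84 to 5.06, so a fall had less range than in brighter genes. Mrpl51 still differed by -1.15 between TFoxp3+ and TFoxp3- cells in polysome-associated mRNA of activated cells, and is among the members called lower there. Mrpl1 was called in none of the 16 comparisons. Mrps18b and Mrps36 were not analysed here.

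Some sequence features, none of them used to choose the genes, stood in more of their promoters than in those of the tested genes. RefSeq promoter windows (GRCm38.p6, 250 bases before to 50 bases after the start) were matched for 63 of the 73 genes. The letters CCGGAAG, the core bound by ETS factors such as GABP, stood on either strand in 36.5% of the members and in 15.4% of the 12585 tested genes with a window. ATGGCGGC, a YY1 core, stood in 19% against 4.31%, and GCGCATGCG, an NRF-1 core, in 9.52% against 3.15%. CACGTG, the E-box that Myc and other factors bind, stood in 7.94% against 10.5%, and CCAAT in 39.7% against 42.2%. Among the 18 cytosolic ribosomal protein genes with a window the ETS letters stood in 44.4% and those of YY1 and NRF-1 in 0, and among 58 oxidative phosphorylation genes they stood in 20.7%, 10.3% and 8.62%. A second feature was the neighbour: 39.7% of members (25 of 63) had the start of another gene on the opposite strand, reading away from theirs, within 1000 bases upstream, against 16.1% of tested genes, 5.56% of cytosolic ribosomal protein genes and 25.9% of oxidative phosphorylation genes. These matches are descriptions of letters and positions, with no test.

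The windows of 6 genes are shown because they stand for genes described below that rose, fell or differed between subsets, and for 1 pair of members with neighbouring starts, from 150 bases before to 30 bases at and after the start, with capitals marking the letters named above on either strand. They lie at chr10:95501920-95502099 (minus strand, Mrpl42), chr14:54426759-54426938 (plus, Mrpl52), chr1:37890327-37890506 (plus, Mrpl30), chr3:94443186-94443365 (plus, Mrpl9), chr13:14613008-14613187 (minus, Mrpl32) and chr7:78782981-78783160 (plus, Mrps11) of GRCm38.p6.
Mrpl42: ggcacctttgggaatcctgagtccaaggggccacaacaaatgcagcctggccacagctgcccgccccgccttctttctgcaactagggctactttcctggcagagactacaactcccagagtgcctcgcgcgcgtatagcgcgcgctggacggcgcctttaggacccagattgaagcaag
Mrpl52: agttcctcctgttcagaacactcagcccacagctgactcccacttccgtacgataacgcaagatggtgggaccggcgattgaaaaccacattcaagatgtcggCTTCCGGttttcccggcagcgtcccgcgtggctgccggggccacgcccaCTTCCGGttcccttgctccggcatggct
Mrpl30: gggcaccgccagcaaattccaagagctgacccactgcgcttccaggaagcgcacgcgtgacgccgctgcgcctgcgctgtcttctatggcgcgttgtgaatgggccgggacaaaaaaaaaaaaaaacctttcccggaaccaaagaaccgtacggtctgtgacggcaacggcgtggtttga
Mrpl9: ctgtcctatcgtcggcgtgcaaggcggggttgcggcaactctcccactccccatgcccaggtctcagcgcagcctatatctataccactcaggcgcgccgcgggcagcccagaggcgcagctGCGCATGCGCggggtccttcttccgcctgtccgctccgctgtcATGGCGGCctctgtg
Mrpl32: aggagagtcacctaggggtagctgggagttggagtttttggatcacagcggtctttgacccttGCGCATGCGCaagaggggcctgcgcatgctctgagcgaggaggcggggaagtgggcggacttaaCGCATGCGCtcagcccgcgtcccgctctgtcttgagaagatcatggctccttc
Mrps11: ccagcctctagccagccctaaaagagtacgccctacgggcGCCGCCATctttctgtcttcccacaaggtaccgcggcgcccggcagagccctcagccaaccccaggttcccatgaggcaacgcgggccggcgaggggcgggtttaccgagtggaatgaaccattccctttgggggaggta
Mrpl52 holds the ETS letters on both sides of its start, Mrpl32 the NRF-1 letters at separate places, and Mrpl9 the NRF-1 letters before and the YY1 letters after its start. Mrpl42 and Mrpl30 hold none of the searched letters in the stretch shown. Mrps11 shares its stretch with another member: the start of Mrpl46 lies 42 bases before that of Mrps11, on the other strand.

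The first question was how the genes respond when each subset is activated. In TFoxp3- cells many more of the genes rose than fell. In cytosolic mRNA 24 of 73 were higher in activated cells (limma, adjusted p under 0.05) and 3 were lower, where 13.6% of all genes tested were called higher and 12.5% lower. In polysome-associated mRNA 30 were higher and 1 was lower, against 14.1% higher and 16.4% lower among all genes. The median member rose by 0.76 in cytosolic and 0.69 in polysome-associated mRNA (median difference of all genes 0.11 and 0.02). Called in both fractions as higher were 18 genes, which is 75% of the cytosolic and 60% of the polysome calls. The overlap of fractions among all genes was not counted. Both subunits took part: in cytosolic mRNA 14 of 48 large-subunit and 10 of 23 small-subunit genes were higher, with medians of 0.59 and 1.07, and in polysome-associated mRNA 18 and 12. Fewer members were called without array 3, 7 or 11 in cytosolic mRNA and without array 4, 8 or 10 in polysome-associated mRNA. Calls among all genes were not counted in those fits.

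In TFoxp3+ cells as many members rose as fell in cytosolic mRNA, at shares near those of all genes. There 14 (19.2%) were higher and 14 (19.2%) lower, against 16.9% and 14.4% of all genes, and the median member differed by 0.04. In polysome-associated mRNA 18 (24.7%) were higher and 4 (5.48%) lower, against 14.7% and 14.6%, with a median of 0.14. In a fit of only the genes above the median mean, 18.3% of members were higher and 16.9% lower in cytosolic mRNA. Of all genes in that fit 15.6% were higher and 24.8% lower. After cyclic loess between arrays the cytosolic split became 21 higher and 10 lower and the polysome split 26 and 4, with 14.3% and 13.9% of all genes higher and 13.3% and 13.8% lower, and the medians of the members became 0.31 and 0.49. Fitted on its own 4 arrays, the cytosolic comparison gave 5 higher and 9 lower, where 8.53% of all genes were higher and 10% lower. The cytosolic comparison gave fewer calls without array 1 or 5, and the polysome comparison without array 6. Calls among all genes were not counted in those fits. Of the 14 genes that were lower in cytosolic mRNA, 1 (Mrps17) was also lower in polysome-associated mRNA, an overlap not counted among all genes.

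**Figure D1:**
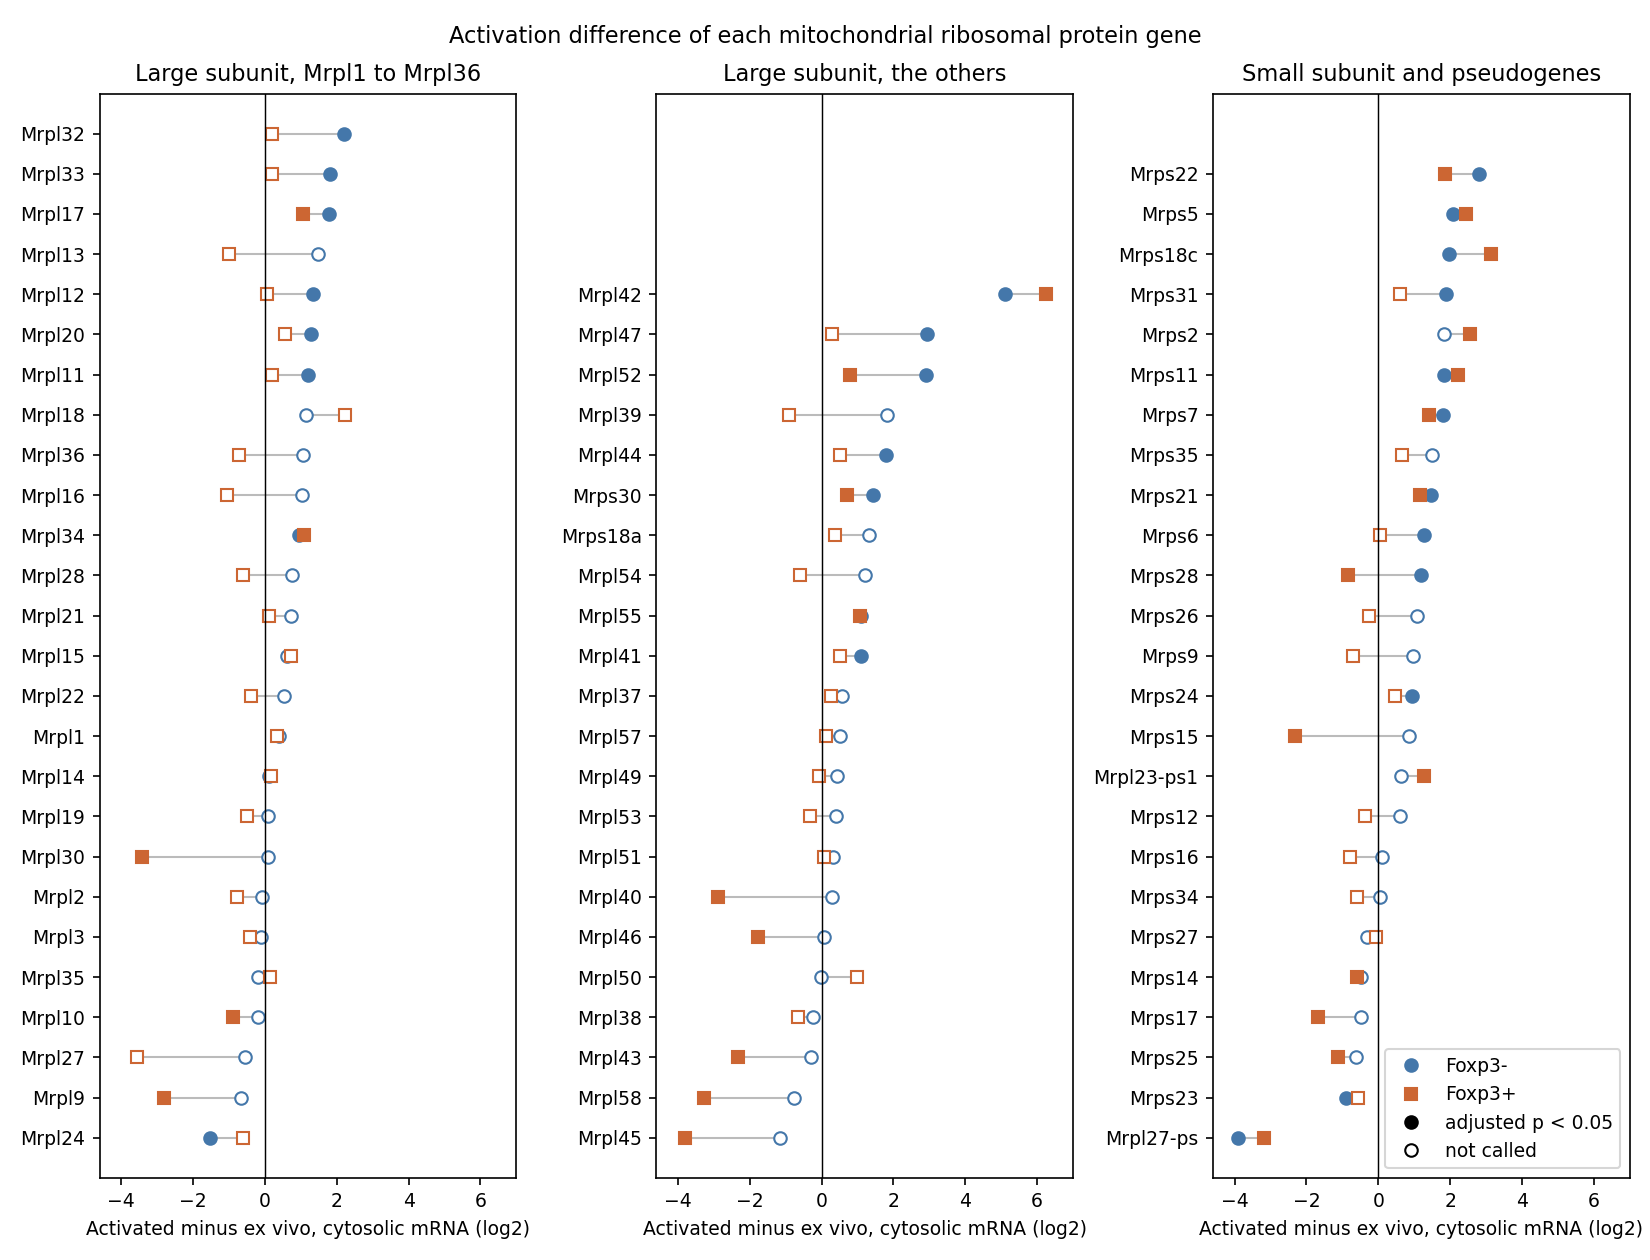
Activated minus ex vivo difference of cytosolic mRNA (log2) for each of the 73 genes, with circles for TFoxp3- and squares for TFoxp3+ cells, filled where limma's adjusted p was under 0.05. The circles lie mostly right of 0 (24 called higher, 3 lower) and the squares spread to both sides (14 and 14). For the squares this is 19.2% of members each way, near the 16.9% higher and 14.4% lower of all genes.

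Mrpl42, a large-subunit protein, showed the largest rise. Its cytosolic values were 6.43 and 5.54 in ex vivo and 10.43 and 11.74 in activated TFoxp3- cells. In TFoxp3+ cells they were 5.27 and 4.48 ex vivo and 11.21 and 11.03 after activation. Every activated array lay above every ex vivo array, in both subsets. The difference was 5.10 ± 0.57 (SE, limma adjusted p = 0.000122) in TFoxp3- cells, which is 34.3-fold, and 6.25 ± 0.57 (adjusted p = 3.81e-05) in TFoxp3+ cells. No exact fold is given for the latter, since its ex vivo mean of 4.88 lay near the array medians. Polysome-associated mRNA rose by 5.86 ± 0.57 (adjusted p = 3.1e-05) and 5.40 ± 0.57 (adjusted p = 8.76e-05). The difference between subsets in this response was not called in either fraction.

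Besides Mrpl42, 8 genes were called higher in all 4 activation comparisons: Mrpl17, Mrpl55, Mrps5, Mrps7, Mrps11, Mrps18c, Mrps21 and Mrps30. How many of all genes were called higher in all 4 was not counted. Mrps18c, a small-subunit member of the S18 family, had cytosolic values of 8.97 and 8.58 in ex vivo and 11.35 and 12.49 in activated TFoxp3+ cells. Its difference of 3.15 ± 0.52 (adjusted p = 0.00137) did not pass the test of a difference from the 1.96 ± 0.52 seen in TFoxp3- cells. Mrps5, which lines the entry of the mRNA channel in ribosomes, went from 5.77 and 6.05 to 7.65 and 9.06 in cytosolic mRNA of TFoxp3+ cells (2.45 ± 0.52, adjusted p = 0.00542). Mrps2, a small-subunit protein of the mRNA exit side, was called in cytosolic mRNA of TFoxp3+ cells (2.56 ± 0.75, adjusted p = 0.0248), where 1 of the 2 activated arrays was at 10.27 and the other at 7.01, against 6.03 and 6.13 ex vivo. Mrpl18 was called in polysome-associated mRNA of the same cells (4.27 ± 1.01, adjusted p = 0.00961), with 6.14 and 5.51 ex vivo and 8.57 and 11.61 after activation. Both calls rest on wide pairs.

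Mrpl47, Mrpl52 and Mrps22 also had large rises in cytosolic mRNA of TFoxp3- cells. Mrpl52 had cytosolic values of 8.90 and 9.24 ex vivo and 12.24 and 11.72 after activation, with no overlap, a difference of 2.91 ± 0.25 (adjusted p = 3.01e-05). Mrpl47 went from 4.61 and 4.47 to 6.73 and 8.20 (2.92 ± 0.65, adjusted p = 0.00783), and this call was lost in 2 of the fits that leave out an array (highest adjusted p = 0.068). Mrps22, a small-subunit protein, rose by 2.80 ± 0.49 (adjusted p = 0.002), from 6.45 and 5.96 to 8.85 and 9.17. The activated pairs lay above the ex vivo pairs for all of them. Mrpl52 and Mrps22 were called higher in cytosolic mRNA of TFoxp3+ cells too (0.79 ± 0.25, adjusted p = 0.0366, and 1.85 ± 0.49, adjusted p = 0.0164), and Mrpl47 was not (0.28 ± 0.65).

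In polysome-associated mRNA of TFoxp3- cells Mrpl32, Mrps31 and Mrpl39 had the largest rises after Mrpl42. Mrpl32, a large-subunit protein that the inner-membrane m-AAA protease matures, was at 5.09 and 3.88 ex vivo and 10.19 and 8.72 after activation (4.97 ± 0.66, adjusted p = 0.00022). Its ex vivo mean of 4.48 lay below the array medians, so no exact fold is given. Its cytosolic rise was 2.20 ± 0.66 (adjusted p = 0.0305). It also rose in polysome-associated mRNA of TFoxp3+ cells (2.83 ± 0.66, adjusted p = 0.00865), and the responses of the subsets were not shown to differ (adjusted p = 0.274). Mrps31 rose by 3.25 ± 0.44 (adjusted p = 0.000276), from 5.35 and 5.75 to 8.18 and 9.42. Mrpl39 rose by 3.24 ± 0.88 (adjusted p = 0.0165), from 7.10 and 6.66 to 9.73 and 10.50.

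Few genes fell in TFoxp3- cells. Mrpl24 went from 11.36 and 11.23 to 9.75 and 9.80 in cytosolic mRNA (-1.52 ± 0.29, adjusted p = 0.0032) and by -0.96 ± 0.29 in polysome-associated mRNA (adjusted p = 0.0274, 0.198 after cyclic loess). Mrps23 fell by 0.91 in cytosolic mRNA (SE 0.27, adjusted p = 0.0284, 0.124 after cyclic loess). Last is the pseudogene row Mrpl27-ps, with 9.05 and 9.15 ex vivo and 7.30 and 3.06 after activation (-3.92 ± 1.01, adjusted p = 0.0155). Its activated pair lay more than 4 apart.

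In TFoxp3+ cells 14 genes fell in cytosolic mRNA (19.2%, against 14.4% of all genes). Mrpl45, which sits at the polypeptide exit next to the inner membrane, went from 9.25 and 9.43 to 6.42 and 4.66 in cytosolic mRNA (-3.80 ± 0.87, adjusted p = 0.00794). Mrpl30 went from 11.59 and 11.40 to 8.62 and 7.55 (-3.41 ± 0.39, adjusted p = 0.00015), a 10.6-fold fall. Mrpl58, a peptidyl-tRNA hydrolase built into the large subunit, went from 10.08 and 10.18 to 5.71 and 7.99 (-3.28 ± 0.54, adjusted p = 0.00135). In none of these 3 did the ex vivo and activated arrays overlap. In polysome-associated mRNA of TFoxp3+ cells the called falls were Mrps17 (-1.75 ± 0.23, adjusted p = 0.000307), Mrpl28 (-1.44 ± 0.28, adjusted p = 0.00363), Mrps16 (-1.40 ± 0.29, adjusted p = 0.0045) and Mrps12 (-1.32 ± 0.27, adjusted p = 0.0047). Mrps12, the S12 protein of the decoding centre, had polysome values of 8.95 and 8.80 ex vivo and 7.89 and 7.23 after activation. Its cytosolic values, 9.58 and 9.40 against 9.18 and 9.05, were not called.

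Mrpl12, the stalk protein that also binds the mitochondrial RNA polymerase, rose in TFoxp3- cells from 9.32 and 9.30 to 10.87 and 10.42 in cytosolic mRNA (1.33 ± 0.21, adjusted p = 0.00118). In TFoxp3+ cells it was 9.57 and 9.61 ex vivo and 9.54 and 9.73 after activation. Mrpl11, at the base of the same stalk, rose by 1.21 ± 0.32 in cytosolic mRNA of TFoxp3- cells (adjusted p = 0.0187) and differed by 0.20 ± 0.32 in TFoxp3+ cells. The direct test of a difference between subsets did not pass for Mrpl12 (-1.29 ± 0.30, adjusted p = 0.0573) or Mrpl11 (-1.01 ± 0.46, adjusted p = 0.325). Mrps30, in the large subunit, rose in all 4 comparisons, by 1.43 and 2.06 in TFoxp3- and by 0.70 and 0.66 in TFoxp3+ cells, cytosolic first. Mrps18a, likewise in the large subunit, was called in none of them (differences of 0.36 to 1.32). In all, 18 members were called in none of the 4 activation comparisons, and 11 in no comparison at all. The same counts were not made over all genes, so these members cannot be called many or few.

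**Figure D2:**
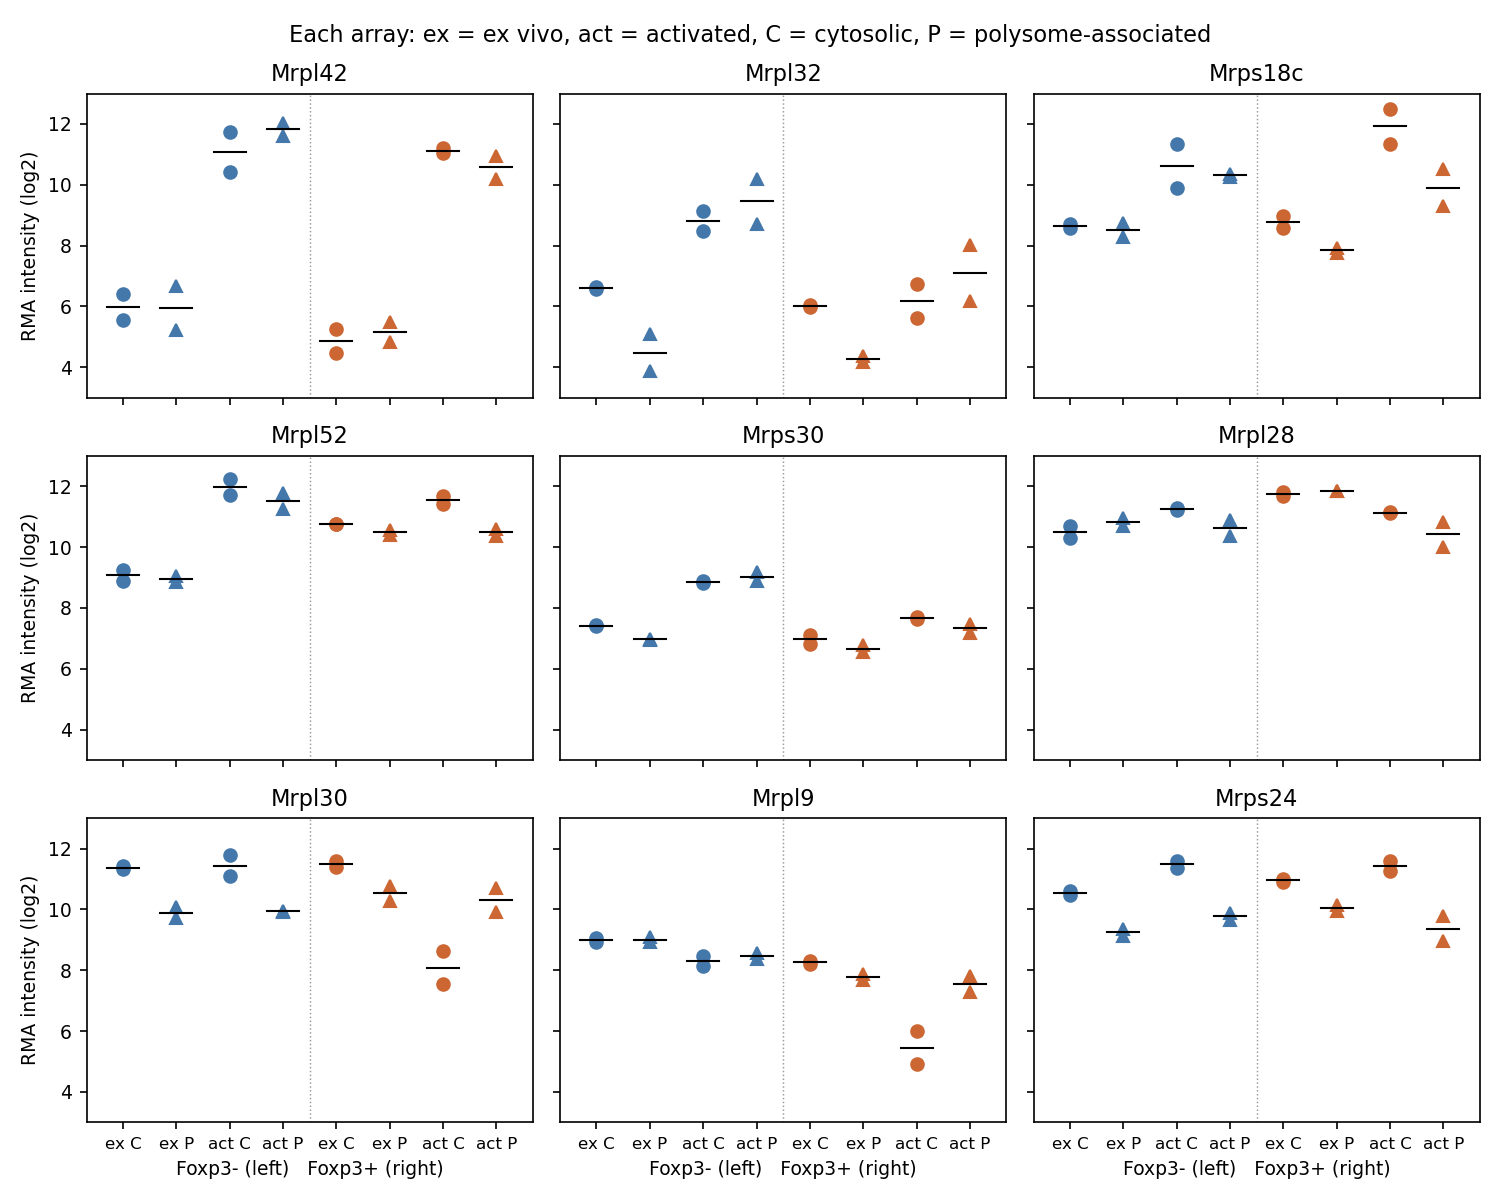
RMA intensity (log2) of 9 members on each of the 16 arrays, with circles for cytosolic (C) and triangles for polysome-associated mRNA (P), TFoxp3- left and TFoxp3+ right of the dotted line, and a bar at each mean of 2 arrays. Mrpl42 is higher on all activated arrays, and Mrpl30 and Mrpl9 are lowest in cytosolic mRNA of activated TFoxp3+ cells.

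Members with a neighbour reading away from the same upstream stretch were set beside that neighbour. For 21 of the 25 members the neighbour was measured, and the signs of member and neighbour were the same in 13 of 21 in cytosolic mRNA of TFoxp3- and 11 of 21 in that of TFoxp3+ cells, counting Mrpl46 and Mrps11 under each name. In activation of TFoxp3+ cells Mrps11 rose by 2.21 ± 0.46 (adjusted p = 0.00461) while Mrpl46 fell, at -1.77 ± 0.33 (adjusted p = 0.00279) in cytosolic mRNA. Their arrays were 7.21 and 7.45 against 10.42 and 8.67 for Mrps11, and 8.43 and 8.21 against 6.97 and 6.15 for Mrpl46. The stretch printed above holds the starts of both. Mrpl18 and Tcp1, a subunit of the cytosolic chaperonin, both had positive differences in all 4 activation comparisons, with Tcp1 at 3.01 (adjusted p = 0.000145) and 2.83 (adjusted p = 0.000225) in cytosolic mRNA of TFoxp3- and TFoxp3+ cells. There Mrpl18 was not called, at 1.15 ± 1.01 (adjusted p = 0.436) and 2.22 ± 1.01 (adjusted p = 0.119). It was called only in polysome-associated mRNA of TFoxp3+ cells. For Mrpl40 the neighbour Hira, a histone chaperone, rose by 1.72 in TFoxp3+ cytosolic mRNA (adjusted p = 0.0409) where Mrpl40 was at -2.88 (adjusted p = 0.0105).

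Lists of related genes were counted in the same way. Of all genes, 13.6% were higher and 12.5% lower in cytosolic mRNA of activated TFoxp3- cells, and 16.9% and 14.4% in that of TFoxp3+ cells. Of 23 cytosolic ribosomal protein genes measured, 3 were higher (13%) and 7 lower (30.4%) in cytosolic mRNA of activated TFoxp3- cells. In that of TFoxp3+ cells 2 were higher (8.7%) and 9 lower (39.1%), and the medians were -0.21 and -0.49. Of 72 oxidative phosphorylation genes, 23 were higher (31.9%) and 6 lower (8.33%) in TFoxp3- cells. In TFoxp3+ cells 19 (26.4%) and 13 (18.1%) were, and the medians were 0.43 and -0.08. A further 3 ribosome proteins with other names were measured. Gadd45gip1 rose in all 4 activation comparisons (1.35 to 2.07), Chchd1 rose in cytosolic mRNA of TFoxp3- cells (1.24 ± 0.28, adjusted p = 0.00908), and Dap3 fell in their polysome-associated mRNA (-1.04 ± 0.34, adjusted p = 0.0392).

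Of 25 assembly factors of the mitochondrial ribosome, 5 were higher (20%) and 6 lower (24%) in cytosolic mRNA of TFoxp3- cells. In that of TFoxp3+ cells 2 were higher (8%) and 11 lower (44%), with a median of -1.17, against 0.01 in TFoxp3- cells. The RNA helicase Dhx30 was lower in all 4 comparisons (-1.04 to -2.43), and so was Mettl17 (-1.22 to -2.97). Rcc1l fell by 3.44 in cytosolic mRNA of TFoxp3+ cells (SE 0.30, adjusted p = 3.36e-05) and differed by 0.04 ± 0.30 in their polysome-associated mRNA. Gtpbp10, a GTPase of large-subunit assembly, rose by 2.62 ± 0.32 in polysome-associated mRNA of TFoxp3- cells (adjusted p = 0.00013). Of 18 genes of mitochondrial transcription and DNA maintenance, 1 was higher (5.56%) and 4 lower (22.2%) in cytosolic mRNA of TFoxp3- cells. In that of TFoxp3+ cells 1 was higher (5.56%) and 3 lower (16.7%), the latter near the 14.4% of all genes. As a list they did not fall: in cytosolic mRNA 11 differences were positive in TFoxp3- and 9 in TFoxp3+ cells (medians 0.41 and 0.02). In polysome-associated mRNA 12 and 8 were positive (medians 0.38 and -0.12). The largest positive difference was 3.85, in cytosolic mRNA of TFoxp3+ cells. Polrmt, the mitochondrial RNA polymerase, fell by 1.38 to 2.78 and Polg2, the accessory subunit of the DNA polymerase, by 2.23 to 4.61 over the 4 comparisons, all of them called. Of 11 mitochondrial translation factors, 0 and 1 were called in cytosolic mRNA of TFoxp3- and TFoxp3+ cells by limma, and 1 and 3 had an unadjusted p under 0.05. The 1 was Tsfm, an elongation factor, at -1.05 ± 0.26 (adjusted p = 0.0122).

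**Figure D3:**
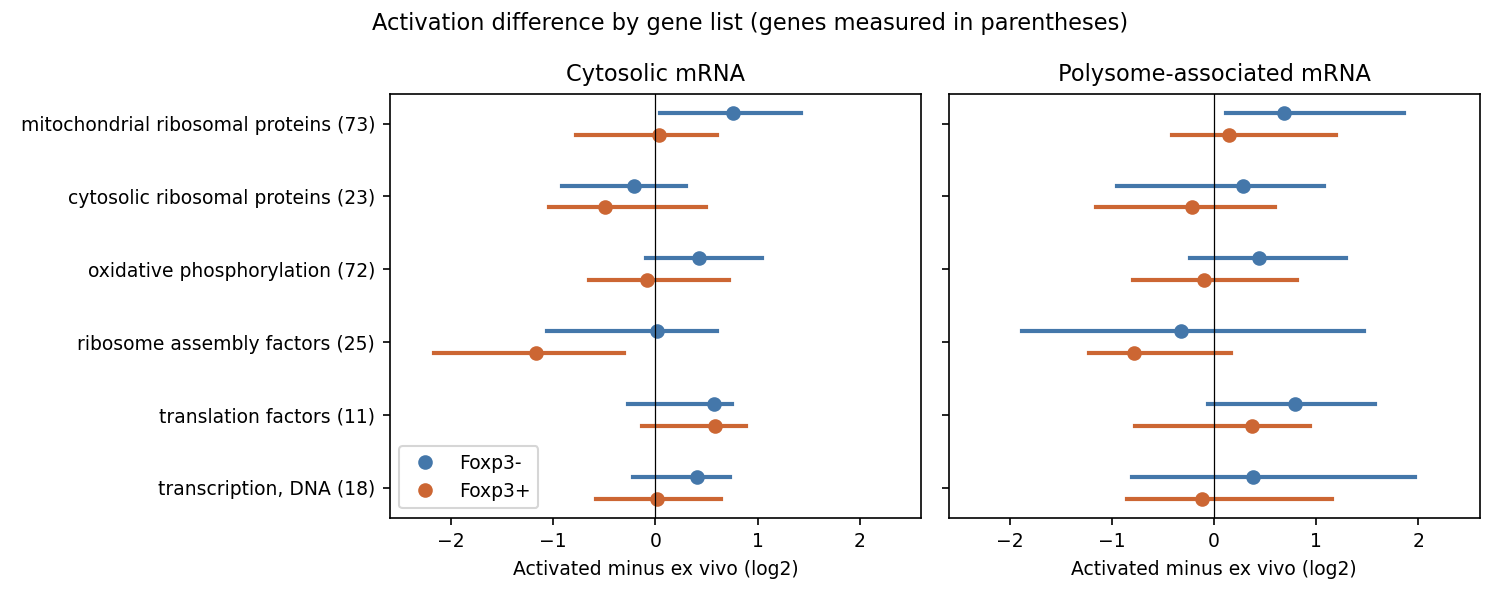
Median (point) and interquartile range (line) of the activated minus ex vivo difference (log2) over the genes of each list, for TFoxp3- (blue) and TFoxp3+ cells (orange), with cytosolic mRNA left and polysome-associated mRNA right. The mitochondrial ribosomal proteins have medians of 0.76 and 0.69 in TFoxp3- and 0.04 and 0.14 in TFoxp3+ cells, the latter 0.31 and 0.49 after cyclic loess.

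The second question was how the subsets differ. Ex vivo few genes did. In cytosolic mRNA 3 members were higher in TFoxp3+ cells (limma, adjusted p under 0.15) and 2 lower, against 2.06% and 2.58% of all genes, and in polysome-associated mRNA 2 and 2, against 1.62% and 2.25%. Mrpl52 was higher in both fractions: its cytosolic values were 10.76 on both TFoxp3+ arrays and 8.90 and 9.24 on TFoxp3- arrays (1.69 ± 0.25, adjusted p = 0.0088, 3.23-fold). Mrpl28 was higher by 1.27 ± 0.28 and 1.04 ± 0.28 (adjusted p = 0.0543 and 0.115), and Mrps23 lower by -1.24 ± 0.27 and -1.04 ± 0.27 (adjusted p = 0.0483 and 0.0977), cytosolic first. Mrps6 was higher and Mrps27 lower in cytosolic mRNA, and Mrpl9 lower in polysome-associated mRNA. Apart from Mrpl52, none of these calls held in every fit that leaves out 1 array. Fitted on the 4 ex vivo arrays alone, 14 members (19.2%) were higher and 20 (27.4%) lower in cytosolic mRNA, where 15.2% of all genes were higher and 16.3% lower. The 3′ minus 5′ gap of the actin probes given above separates the same groups, and its part in these differences was not tested.

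In activated cells many more members were lower than higher in TFoxp3+ cells, although most members were not called. In cytosolic mRNA 32 members were lower and 1 higher (Mrps18c), where 12.2% of all genes were lower and 13.8% higher. In polysome-associated mRNA 24 were lower and 0 higher, where 13.7% were lower and 18.7% higher. The median member differed by -0.77 and -0.44, while the median of all genes was 0.13 and 0.20. Lower in both fractions were 17 genes, which is 53.1% of the cytosolic and 70.8% of the polysome calls. This overlap was not counted among all genes. In polysome-associated mRNA fewer members were called without array 10 or 12, and calls among all genes were not counted in those fits. Large-subunit genes gave 22 of 48 and small-subunit genes 10 of 23 of the cytosolic calls.

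These counts depend on the settings more than their direction does. After cyclic loess 18 were lower and 2 higher in cytosolic mRNA, where 8.62% of all genes were lower and 9.66% higher, and 15 and 1 in polysome-associated mRNA, where 13.5% were lower and 11.5% higher. The medians of the members were then -0.36 and -0.28. With array weights 20 were lower and 0 higher in cytosolic mRNA (5.23% and 3.08% of all genes), and 10 and 0 in polysome-associated mRNA (6.9% and 5.22%). Fitted on its own 4 arrays each comparison called 6 genes lower and 0 higher, where 2.25% and 3.84% of all genes were lower. In a fit of only the genes above the median mean intensity, 45.1% of members were lower in cytosolic and 31% in polysome-associated mRNA. Of all genes in that fit 22.2% and 21.8% were lower, so the members lay closer to the other genes there. All 33 cytosolic and 24 polysome differences kept their sign after cyclic loess.

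Related lists also held genes that were lower in activated TFoxp3+ cells, where 12.2% of all genes were lower in cytosolic and 13.7% in polysome-associated mRNA. Of the cytosolic ribosomal protein genes 39.1% were lower in cytosolic and 56.5% in polysome-associated mRNA, and of the oxidative phosphorylation genes 31.9% and 30.6%. Of the assembly factors of the mitochondrial ribosome 56% and 36% were lower, of the mitochondrial translation factors 27.3% and 63.6%, and of the genes of mitochondrial transcription and DNA maintenance 16.7% and 27.8%. The 16.7% lies near the share of all genes. Called higher were at most 4.35% of a list in cytosolic mRNA, against 13.8% of all genes. In polysome-associated mRNA it was at most 12% (the assembly factors), against 18.7%. None of the 3 ribosome proteins with other names was called by limma in either fraction, and 0 had an unadjusted p under 0.05.

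**Figure D4:**
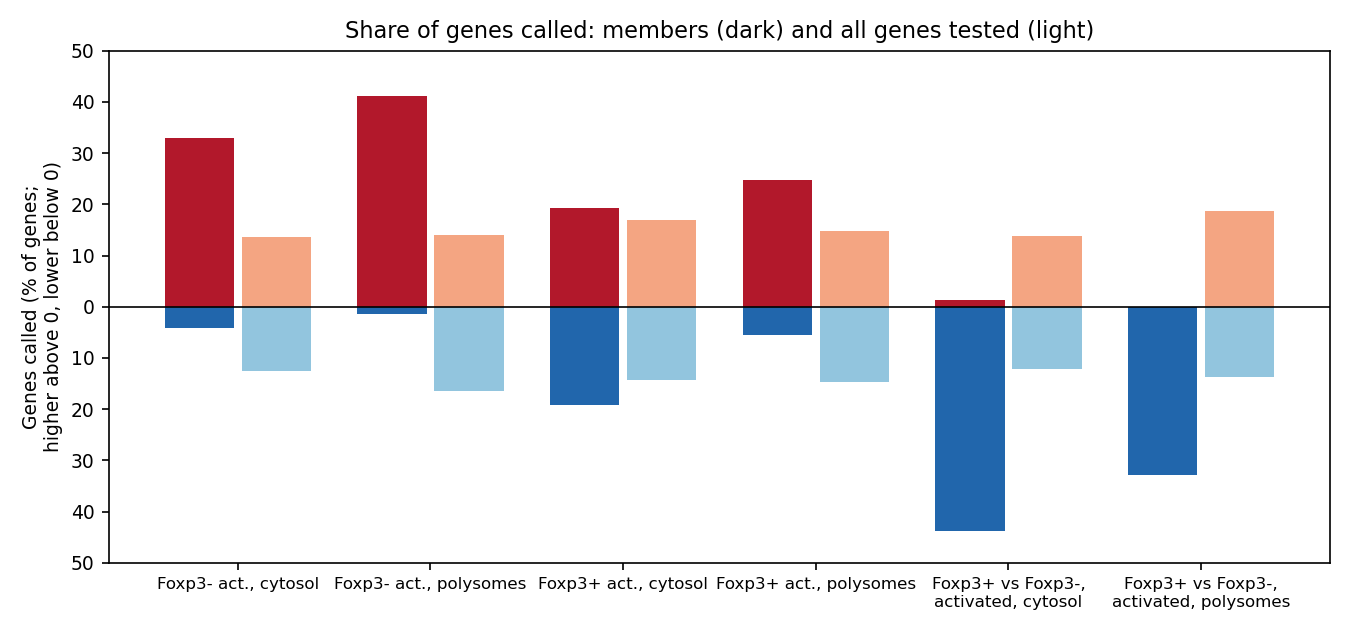
Percent of genes called higher (above 0) and lower (below 0) for the 73 members (dark) and all 16475 genes tested (light), in the 4 activation comparisons and the comparisons of the subsets after activation. In the latter 43.8% and 32.9% of the members were lower in TFoxp3+ cells, against 12.2% and 13.7% of all genes. In a fit of only the genes above the median mean, these shares were 45.1% and 31%, against 22.2% and 21.8%.

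The largest subset differences in activated cells were those of Mrpl39 and Mrpl40 in cytosolic and Mrpl47 and Mrpl13 in polysome-associated mRNA. Mrpl39 was at 7.11 and 4.61 in TFoxp3+ and 10.34 and 9.70 in TFoxp3- cells (-4.16 ± 0.88, adjusted p = 0.0137), a 17.9-fold difference. Mrpl40 was at 7.12 and 4.21 against 9.70 and 8.64 (-3.50 ± 0.70, adjusted p = 0.011). For both the pairs did not overlap, although the TFoxp3+ arrays of each lay far apart. Mrpl30, at 8.62 and 7.55 against 11.80 and 11.08, differed by -3.36 ± 0.39 (adjusted p = 0.000855), and Mrps15 by -3.11 ± 0.53 (adjusted p = 0.0053). In polysome-associated mRNA Mrpl47 was at 4.78 and 4.53 against 7.92 and 8.44 (-3.52 ± 0.65, adjusted p = 0.0064). Mrpl13 followed at -3.08 ± 0.60 (adjusted p = 0.00834), Mrps31 at -2.69 ± 0.44 (adjusted p = 0.00372) and Mrpl32 at -2.35 ± 0.66 (adjusted p = 0.0353). Mrps18c was the 1 gene on the other side, at 11.35 and 12.49 against 9.88 and 11.35 in cytosolic mRNA (1.30 ± 0.52, adjusted p = 0.129), with pairs that touch.

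Whether the activation response itself differed between subsets was tested directly, as a difference of differences at an adjusted p under 0.05. In cytosolic mRNA 4 members responded less, or in the other direction, in TFoxp3+ cells, against 1.21% of all genes in that direction, and 0 responded more, against 0.856%. In polysome-associated mRNA the counts were 2 and 0, against 1.43% and 1.15%. The median member was at -0.72 and -0.44 (all genes 0.03 and 0.10), and 57 of 73 members had a negative value in cytosolic mRNA. Mrpl30 was the largest, at -3.48 ± 0.55 (adjusted p = 0.0131), and its cytosolic level in TFoxp3- cells was 11.41 and 11.32 ex vivo and 11.80 and 11.08 after activation. Mrpl9 and Mrpl52 were both at -2.13 (SE 0.46 and 0.36, adjusted p = 0.0422 and 0.016), and Mrps28 at -2.01 ± 0.40 (adjusted p = 0.0286). They differ in form: Mrpl52 was high in TFoxp3+ cells already ex vivo and reached 11.41 and 11.68, Mrpl9 fell from 8.20 and 8.32 to 4.91 and 5.99, and Mrps28 rose in TFoxp3- and fell in TFoxp3+ cells. In polysome-associated mRNA Mrpl52 was at -2.55 ± 0.36 (adjusted p = 0.00759) and Mrps30 at -1.40 ± 0.29 (adjusted p = 0.0305). These tests rest on the same arrays as the activation and subset comparisons. The cytosolic calls were lost without array 1, 3 or 7, fewer without array 5 and more without 1 of the activated TFoxp3+ arrays. Leaving out 1 array moved the number of polysome calls both ways, and the call of Mrpl52 was kept in every such fit. Calls among all genes were not counted in these fits.

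The third question was whether the polysome-associated level of a transcript differed from its cytosolic level. Since the arrays are normalised, such a difference is relative to other transcripts and does not give the share of a transcript on polysomes. Polysome-associated and cytosolic arrays of 1 subset and state belong to the same array series. Ex vivo, 0 members were called in either subset by limma at an adjusted p under 0.05, where 0.0607% of all genes were called in TFoxp3- and 0.0364% in TFoxp3+ cells, and 12 and 13 members had an unadjusted p under 0.05. The median member was lower in polysome-associated mRNA, by -0.32 and -0.28 (all genes 0.01 and 0.00), with 57 and 56 of 73 members negative. With array weights 11 members were called lower in TFoxp3- and 3 in TFoxp3+ cells, where 2.54% and 0.558% of all genes were called lower.

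In activated TFoxp3- cells 2 members were lower on polysomes (1.52% of all genes) and 0 higher (2.36%). Mrps24, the S3 protein at the mRNA entry, was at 9.90 and 9.66 in polysome-associated against 11.58 and 11.37 in cytosolic mRNA (-1.70 ± 0.26, adjusted p = 0.00805, 3.24-fold). Mrpl33 followed at -1.30 ± 0.32 (adjusted p = 0.0464), a call lost under all 5 other settings tried. In activated TFoxp3+ cells 6 members were higher on polysomes (2.31% of all genes) and 3 lower (2.36%). Mrps24 was lower there too, at 8.96 and 9.77 against 11.26 and 11.59 (-2.06 ± 0.26, adjusted p = 0.0033, 4.18-fold), as were Mrps12 (-1.56 ± 0.27, adjusted p = 0.0106) and Mrpl52 (-1.06 ± 0.25, adjusted p = 0.0412).

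Higher on polysomes of activated TFoxp3+ cells were Mrps27, Mrpl19, Mrpl30, Mrpl9, Mrpl16 and Mrpl46. Mrps27, a protein with pentatricopeptide repeats, was at 9.64 and 8.44 against 6.11 and 7.02 (2.48 ± 0.41, adjusted p = 0.00908). Mrpl19 was at 7.60 and 7.79 against 5.63 and 5.06 (2.35 ± 0.38, adjusted p = 0.0079). Mrpl30 was at 10.71 and 9.90 against 8.62 and 7.55 (2.22 ± 0.39, adjusted p = 0.0106, 4.67-fold), and Mrpl9 at 7.81 and 7.27 against 4.91 and 5.99 (2.09 ± 0.32, adjusted p = 0.0067). None of these pairs overlapped. Fitted on the 4 arrays compared alone, and with array weights, 0 members and 0% of all genes were called, with 9 members in the fit of all arrays. Without array 13 more members were called, and calls among all genes were not counted in that fit.

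Differential translation was tested as the difference between subsets of the polysome-associated minus cytosolic difference. The study corrected for cytosolic mRNA by regression (anota), and its cut-offs were applied here to this subtraction. Ex vivo, 0 members passed an adjusted p of 0.3 by limma (0% of all genes) and 1 had an unadjusted p under 0.05. In activated cells the polysome-associated minus cytosolic difference was higher in TFoxp3+ cells for 8 members (11%) at an adjusted p under 0.15. It was lower for 0, against 3.83% higher and 3.65% lower among all genes. The largest was Mrpl30, at 3.73 ± 0.55 (adjusted p = 0.0126), followed by Mrps27 (2.19 ± 0.59, adjusted p = 0.0832), Mrpl19 (1.99 ± 0.53, adjusted p = 0.0828) and Mrpl46 (1.96 ± 0.47, adjusted p = 0.0603). Mrpl9, Mrpl43, Mrpl44 and Mrps28 followed with 1.42 to 1.93. The test shares its arrays with the subset comparisons: in all 8 the subset difference was negative in cytosolic mRNA (-1.18 to -3.36) and nearer to 0 or positive in polysome-associated mRNA. For Mrpl30 the polysome-associated values were 10.71 and 9.90 in TFoxp3+ and 9.94 and 9.92 in TFoxp3- cells, a difference of 0.37 ± 0.39. After cyclic loess 4 were called higher and 1 lower (2.84% and 4.5% of all genes), and the median member moved from 0.27 to -0.05. With array weights 1 was higher (0.346% of all genes higher, 0.419% lower), and on the arrays compared alone 0 members and 0% of all genes were called. More members were called without array 13 or 14, and calls among all genes were not counted in those fits.

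**Figure D5:**
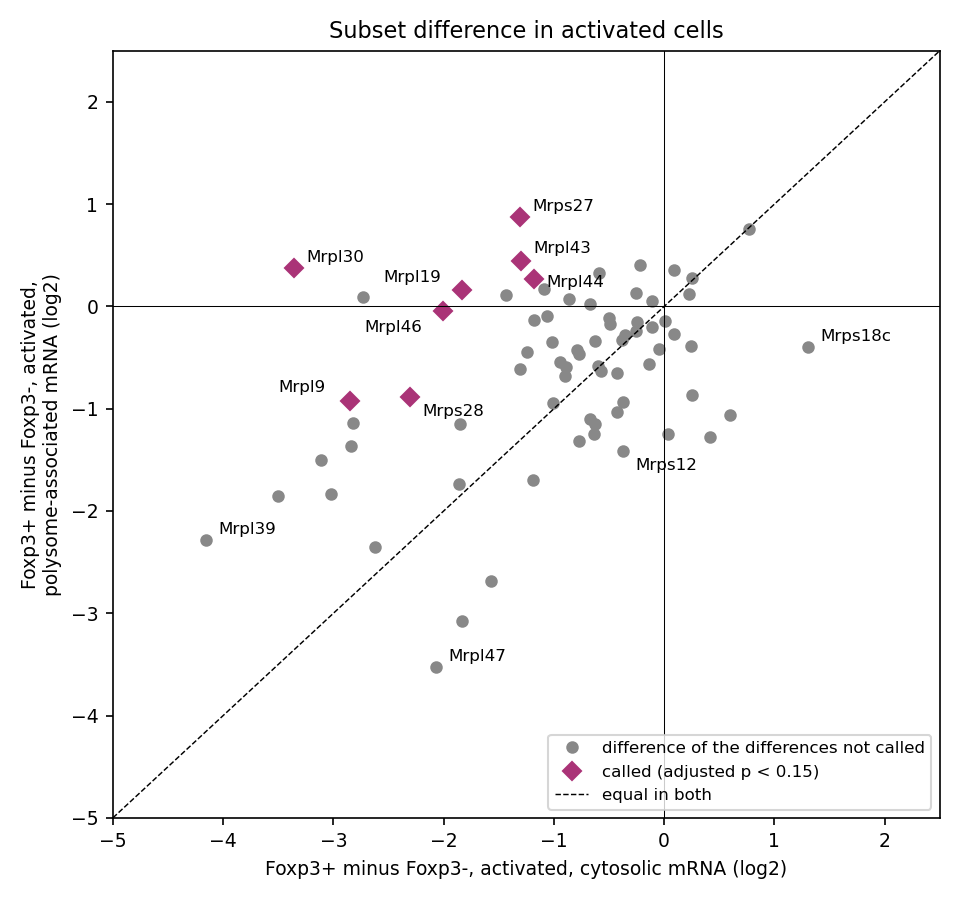
TFoxp3+ minus TFoxp3- difference in activated cells (log2) in cytosolic (x) and polysome-associated mRNA (y), 1 point a member, with diamonds for the 8 members called for differential translation and a dashed line where both are equal. The diamonds lie above the line, with cytosolic differences of -1.18 to -3.36.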

How the data were processed

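RNA of 8 groups of 2 samples was amplified and hybridised to Affymetrix arrays, 1 sample an array. The authors normalised the arrays with RMA and deposited log2 intensities of 16539 probe sets summarised per gene, with 64 control sets left out here. The version of RMA and the annotation build are not given in the sources used here. Groups were taken from the labels. Nothing here was renormalised in the main analysis. limma 3.58.1 (R 4.3.3) fitted 1 mean per group over all 16 arrays with an empirical Bayes variance, and p-values were adjusted by Benjamini and Hochberg over all 16475 genes. A gene was called at an adjusted p under 0.05 for activation, for polysome-associated against cytosolic mRNA and for the difference in activation between subsets, under 0.15 for subsets and for differential translation in activated cells, and under 0.3 for differential translation ex vivo. The SE printed is that of the fit. With 2 arrays a group, and ex vivo RNA pooled from 2 experiments, p-values measure only spread between arrays. That spread is 1 moderated value per gene over all 8 groups, not the spread of the groups compared. Pairs of arrays lay further apart in activated than in ex vivo cells. The SE can therefore be too small for activated and too large for ex vivo groups. The number of arrays limits the precision.

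The members and lists were chosen with earlier results of these data known. Named for each comparison were the 4 called members with the largest difference in each direction whose arrays did not overlap, the 3 members of highest and lowest mean, and a few for orientation (Mrpl11, Mrpl12, Mrps2, Mrps12, Mrps18a, Mrps18c, Mrps30). Of related lists, up to 4 genes were named by smallest adjusted p. Other genes named were chosen after their values were seen. Mrps18b and Mrps36 were not analysed here. The motifs spelled out in the text were searched as exact letters on both strands of the RefSeq promoter windows (Python 3.11.15, pandas 2.3.3). NRF-1 letters can overlap themselves on the opposite strand. The fit was tested on simulated data. Other settings tried were a fit restricted to the compared arrays, array weights, cyclic loess, centring on the array median, a filter on dim genes, and leaving out each array.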

Additional observations from a re-analysis of the deposited data

Results flagged for a closer look

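These differences between subsets passed the test of the difference itself, and no explanation was tested. The cut-off was an adjusted p under 0.05 by limma for the activation response and under 0.15 for the polysome-associated minus cytosolic difference. The activation response of cytosolic mRNA was lower in TFoxp3+ than in TFoxp3- cells by limma for Mrpl30 (-3.48 on the log2 scale), Mrpl9 (-2.13), Mrpl52 (-2.13) and Mrps28 (-2.01). For polysome-associated mRNA the same held for Mrpl52 (-2.55) and Mrps30 (-1.40). In activated cells the polysome-associated minus cytosolic difference was higher in TFoxp3+ cells for Mrpl30 (3.73), Mrps27 (2.19), Mrpl19 (1.99), Mrpl46 (1.96), Mrpl9 (1.93), Mrpl43 (1.74), Mrpl44 (1.45) and Mrps28 (1.42). Mrpl30, Mrpl9 and Mrps28 appear in both lists, which rest on the same activated arrays. The calls depend on the settings. On the compared arrays alone 0 members (0% of all genes) were called for the polysome-associated minus cytosolic difference. With array weights 1 member was called higher (0.346% of all genes). The cytosolic activation calls were lost in some fits that leave out an ex vivo array. Groups of 2 arrays are too small to look for single arrays that stand apart.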

How the results depend on the processing

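No paired analysis was possible because the labels number the arrays 1 to 16 and the groups share no replicate number. No label ties a cytosolic array to a polysome-associated array of the same cells, and the fit treats them as independent. Of 64 named differences, 0 changed sign under any alternative, and 35 kept their call on the compared arrays alone, 51 with array weights, 54 after cyclic loess, 61 after centring, 62 without dim genes and 37 in every fit that leaves out an array. On only the compared arrays the calls were 14 for TFoxp3+ activation in cytosolic and 8 in polysome-associated mRNA, 34 and 19 for subsets ex vivo, 6 and 6 for activated subsets, 5 for polysome-associated against cytosolic mRNA in ex vivo TFoxp3- cells, and 0 for that comparison in both activated subsets and for differential translation in activated cells. With array weights they were 32 and 19 for subsets ex vivo, 20 and 10 for activated subsets, 11 and 3 for polysome against cytosol in TFoxp3- and TFoxp3+ cells ex vivo, 1 and 0 in activated cells, and 1 for differential translation. Cyclic loess gave 20 for activated subsets in cytosolic mRNA, 1 for polysome against cytosol in activated TFoxp3- cells, 5 for differential translation and 2 for the cytosolic activation difference. Centring gave 1, and the filter on dim genes 1, for polysome against cytosol in activated TFoxp3- cells. Leaving out 1 array gave 12 to 35 and 16 to 36 calls for TFoxp3- activation (cytosolic, then polysome-associated), 13 to 31 and 12 to 30 for TFoxp3+ activation, 1 to 7 and 1 to 6 for subsets ex vivo, 26 to 37 and 14 to 29 for activated subsets, 0 to 12 and 1 to 7 for the activation difference, 0 to 0 for polysome against cytosol ex vivo in both subsets, 1 to 5 and 8 to 17 for it in activated TFoxp3- and TFoxp3+ cells, 0 to 0 for differential translation ex vivo and 6 to 17 in activated cells. The cause of these changes was not tested. A single array left in a group was assumed to vary like the others.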
